A study of Mus musculus with 6 samples.

Results

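The 10 transcription factor genes examined here are known for shaping and keeping the identity of naive and resting T cells: Tcf7, Lef1, Satb1, Foxp1, Ets1, Tcf3, Tcf12, Foxo1, Foxo3 and Bcl11b. The members are all probe sets that the array's annotation assigns to exactly 1 of these symbols. They number 38 of the 45101 probe sets in the table and stand for 9 of the 10 genes, and of 18193 genes with such a probe set in all. Tcf7 has no member probe set and was not analysed here. The probe sets divide unevenly, with 8 for Foxp1, 5 each for Satb1 and Tcf12, 4 each for Bcl11b, Ets1 and Foxo1, 3 each for Foxo3 and Tcf3, and 2 for Lef1.

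The cells were P14 cytotoxic T cells of C57Bl/6 mice, which carry a transgenic T cell receptor specific for the gp33 peptide. Spleen cells were activated with this peptide for 24 h and then infected with a retrovirus that encodes a GFP-tagged, phosphorylation-deficient mutant of HDAC7. HDAC7, of the class IIa deacetylases, acts as a repressor in the nucleus and is exported from it when phosphorylated. Cells of the infected cultures were sorted into GFP positive cells, labelled as carrying the mutant, and GFP negative cells, labelled control. Both groups therefore share the activation and the exposure to virus, and no cells with an empty vector were used here. Each group holds 3 samples, 1 array each, which the labels call biological replicates without saying whether they came from separate mice or cultures. P-values therefore measure only the spread between these samples, and 3 arrays a group limit what can be resolved.

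The genes work at different levels of T cell identity. Tcf7 and Lef1 encode HMG box factors that bind beta-catenin and the TLE corepressors, Tcf3 and Tcf12 encode E proteins that bind E-box sequences and are held in check by the ID proteins, and Ets1 encodes an ETS domain factor. FOXO1 and FOXO3 are forkhead factors that are excluded from the nucleus after phosphorylation by AKT and that support quiescence and homing genes in resting T cells. FOXP1 is a forkhead repressor needed for quiescence of naive T cells, SATB1 organises chromatin in thymocytes, and BCL11B is a zinc finger factor required for commitment to the T lineage. Several of these genes are known to be lowered when naive T cells become effectors. Values below are deposited log2 signals, so a difference of 1 is a doubling of signal, and a change is GFP positive minus GFP negative. "Rose" and "fell" are used where the adjusted p from limma was under 0.05.

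Bcl11b, Tcf12, Foxo3 and Foxp1 rose in GFP positive cells, by 2.96-fold, 1.84-fold, 1.84-fold and 1.38-fold on their brightest probe sets. No member gene fell on its brightest probe set, and Satb1, at -0.32, had the lowest change. Of the 38 probe sets, 35 passed the filter on dim signal, a mean log2 signal of at least 1.27 over the 6 arrays. Among these 35, 17 rose (48.6%) and 1 fell (2.86%), while 17 did not pass. Over all 27022 probe sets tested, 32.5% changed, 19.3% being higher and 13.2% lower. Probe sets of 1 gene share a target, so counts by gene are the fairer ones. Of 9 member genes, 4 rose (44.4%) and 0 fell, against 24.6% higher and 17.5% lower among 13194 genes tested. Satb1 was the only member gene with a lower signal, at an unadjusted limma p of 0.0293 (adjusted 0.0650). The median change was 0.36 over the member genes and -0.02 over all genes tested.

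**Figure D1:**
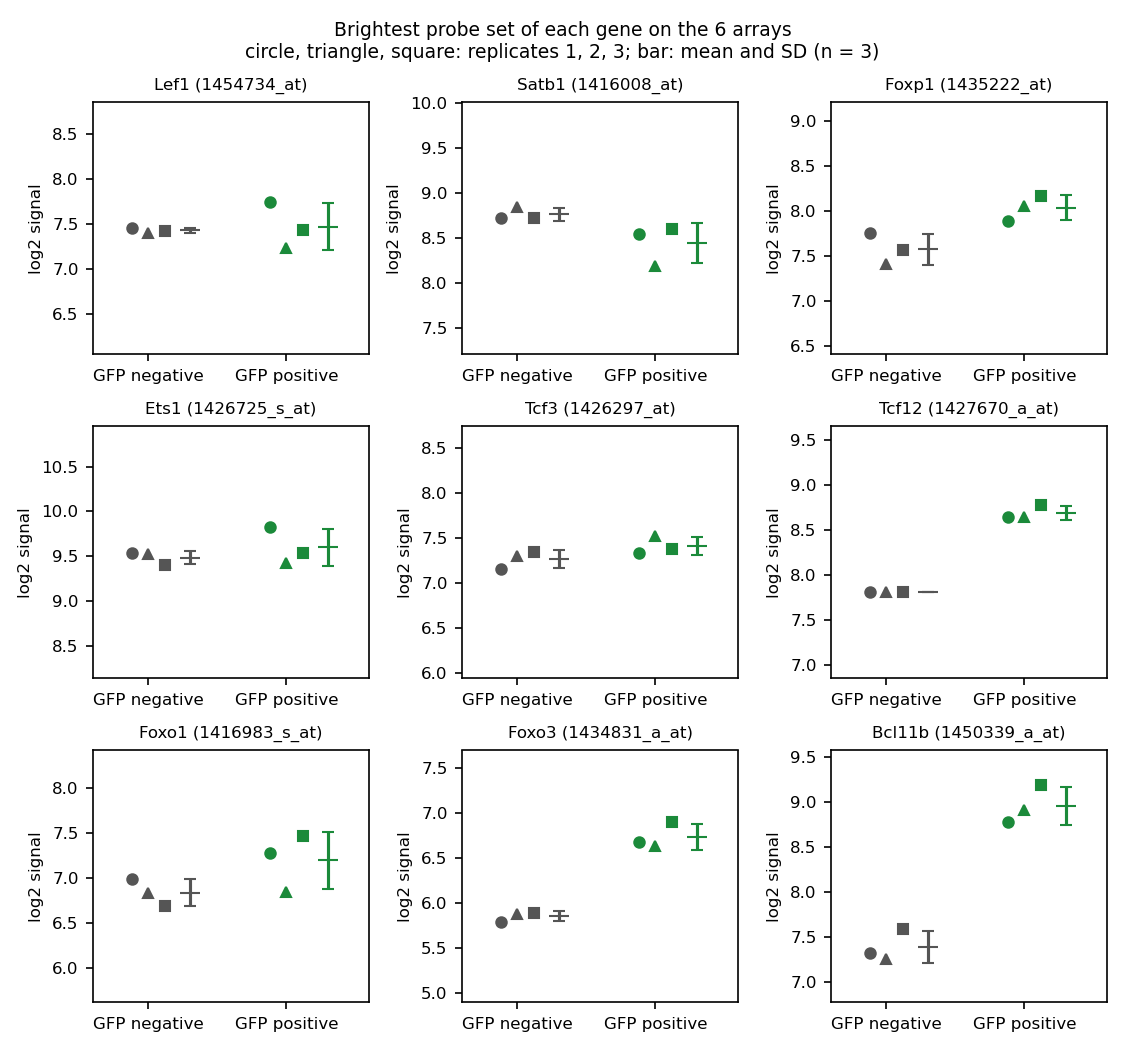
Log2 signal of the brightest probe set of each member gene (y axis) on the 3 GFP negative (grey) and 3 GFP positive (green) arrays, with the mean and SD of each group beside the points. Bcl11b, Tcf12, Foxo3 and Foxp1 show no overlap between groups with GFP positive above, Satb1 shows none with GFP positive below, and the other 4 genes overlap.

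Whole-array checks bear on these values as follows. Array medians were 1.69 to 1.72 on GFP negative and 1.62 to 1.66 on GFP positive arrays. Over the probe sets past the filter the order turned, with 3.53 to 3.57 against 3.61 to 3.70, and 59.4% of all calls were higher on the deposited scale against 39.3% with median centring. An Hdac7 probe set read 4.81 to 4.86 on GFP negative and 8.09 to 8.18 on GFP positive arrays, while a second read lower in GFP positive cells (6.74 ± 0.08 against 6.19 ± 0.02, SD, n = 3). Which part of the transcript each one covers and the construct carries was not examined here, so the check of the labels rests on the first. Cd8b1, a coreceptor gene that marks cytotoxic T cells, was bright in both groups (9.55 and 10.70), and Cd4 was dim (2.87 and 2.82). Control probe sets that match no mouse transcript averaged 0.64 and 0.66, so values near these lie close to background. The difference between 3' and 5' control probe sets, a sign of RNA quality, was 0.47 and 0.51 for Actb (exact two-sided permutation p = 0.2) and 0.03 and 0.06 for Gapdh (p = 0.5), where 0.1 is the smallest p that 3 against 3 allows.

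Markers of other cell types were mostly dim. Of 9 B cell markers 5 lay under the dim filter, and Pax5 and Ebf1 were at 1.57 or below in both groups, but Ighm was bright and rose, from 9.58 to 9.91 (limma adjusted p = 0.0453). The summed linear signal of the B cell list ran from 759 to 900 on GFP negative and from 905 to 1100 on GFP positive arrays. This sum came mostly from Ighm. Of the 4 B cell markers tested only Ighm rose, and their median change was -0.06. Several members, among them Foxp1, Ets1, Tcf3, Tcf12 and Foxo1, are also expressed in B cells, and the part of such cells in the results was not tested. Of 6 dendritic cell markers 4 fell, with summed signals of 59.3 to 103 and 23.6 to 30.8, mostly from Batf3, which activated T cells express too. The sums were 32.6 to 34.3 and 34.3 to 37.1 for 10 myeloid genes, where Cd68 rose, and 12.6 to 14.9 and 10.3 to 10.9 for 4 NK genes, where Fcer1g fell. They were 22.3 to 24.4 and 25.2 to 27.5 for 4 CD4 T cell genes, where Zbtb7b rose, and 20.5 to 23.1 and 28.3 to 31.4 for 6 stromal genes, where Pecam1 rose. For 4 erythroid genes they were 10.2 to 11.7 and 9.20 to 9.43. In bulk samples, fewer cells of a type and less RNA per cell cannot be told apart.

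Bcl11b had the largest change among the brightest probe sets of the members. Its brightest probe set, 1450339_a_at, read 7.33, 7.26 and 7.59 on GFP negative arrays 1 to 3 and 8.78, 8.91 and 9.19 on GFP positive arrays 1 to 3. Every GFP positive array lay above every GFP negative one, and the gap exceeded the range within either group. The means were 7.39 ± 0.17 (SD, n = 3) and 8.96 ± 0.21 (n = 3), a rise of 1.57 ± 0.14 (SE, limma adjusted p = 0.000305). The other 3 probe sets also rose, by 1.30 (1435227_at), 1.52 (1452966_at) and 1.39 (1438784_at), and in each the groups did not overlap. Their differences from the change of the brightest probe set did not pass (-0.27 to -0.05, limma adjusted p 0.202 to 0.827). Among all genes tested, 1.11% had a larger rise than Bcl11b.

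All 4 Bcl11b probe sets passed in every alternative run, but the size on dimmer probe sets depended on the background treatment. With 32 added to each signal on the linear scale, the brightest probe set rose by 1.41 and the dimmest, 1438784_at, by 0.76 in place of 1.39. The difference between these changes then passed (-0.65, limma adjusted p = 0.00215). The added 32 shrinks changes of dimmer probe sets by construction, so this difference is not read as an unequal change. By root mean square difference of their centred profiles over the 6 arrays, the genes most like Bcl11b were Traf1 (0.07), an adaptor of TNF receptors, Xaf1 (0.08), Oas3 (0.10), an interferon-induced enzyme gene, Socs3 (0.10), a feedback inhibitor of cytokine signalling, and Mob3c (0.10). Their changes were 1.41 to 1.67. Likeness by this measure includes the step between the groups.

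Tcf12, the E protein gene also called HEB, rose on 3 of its 4 tested probe sets. Probe set 1427670_a_at read 7.81, 7.81 and 7.80 on the GFP negative and 8.64, 8.64 and 8.77 on the GFP positive arrays. The gap between the groups exceeded the range within either. The rise was 0.88 ± 0.08 (SE, limma adjusted p = 0.000378), and a second probe set, 1421908_a_at, rose by 0.91 ± 0.10. Another, 1439209_at, started low, at 2.49, 2.83 and 2.43, and read 3.59, 4.06 and 4.63 in GFP positive cells, a rise of 1.51 ± 0.25 that became 0.38 with 32 added on the linear scale. That setting also gave 0.58 for 1421908_a_at. The fourth tested, 1446294_at, had non-overlapping groups and did not pass (0.42, adjusted p = 0.136). The fifth, 1439619_at, lay under the dim filter at 0.80 and 0.88.

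Tcf3, the gene of the E2A proteins and a relative of Tcf12, did not pass on any of its 3 probe sets. Its brightest probe set, 1426297_at, read 7.15, 7.30 and 7.34 on GFP negative and 7.33, 7.52 and 7.37 on GFP positive arrays, which overlap. The change was 0.14 with a 95% interval of -0.08 to 0.36 (limma adjusted p = 0.279), so a rise as large as that of Tcf12 lay outside it. The change was 0.03 with median centring, 0.07 with quantile normalization, and 0.09 without GFP negative 1 or without GFP positive 2. The dimmer probe sets had changes of 0.26 (1427764_a_at) and 0.25 (1452542_x_at, a type that can cross-hybridise), and did not pass. Tcf12 minus Tcf3, from their brightest probe sets, went from 0.54 ± 0.10 to 1.28 ± 0.14 (SD, n = 3), with no overlap between groups. An exact two-sided permutation test of this difference, chosen after the values were seen, gave p = 0.1, the smallest that 3 against 3 can give, and 0.1 after adjustment over 2 such pairs.

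Foxo3 rose on its brighter probe sets. The first, 1434831_a_at, read 5.79, 5.88 and 5.89 on GFP negative and 6.68, 6.63 and 6.90 on GFP positive arrays. Each GFP positive array lay above each GFP negative one, and the rise was 0.88 ± 0.10 (SE, limma adjusted p = 0.000668). The second, 1434832_at, rose by 0.65 ± 0.09, from 4.61 to 5.26, and by 0.32 with 32 added on the linear scale. The third, 1450236_at, lay near background at 1.77 and 1.66 and did not pass. Its change was smaller than that of the brightest probe set by 0.99 (limma adjusted p = 0.00442). This difference passed in every alternative run that tested it. Whether 1450236_at reads the transcript at so low a signal was not tested, so the difference is not read as an unequal change. Over all genes, 11.1% of 9824 such differences between probe sets passed, and 2 of 26 among the members did, the other being of a dim Foxp1 probe set.

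Foxo1, the FOXO gene better known from naive T cells, read 6.99, 6.84 and 6.70 on GFP negative and 7.28, 6.85 and 7.47 on GFP positive arrays (1416983_s_at). GFP positive 2 fell within the range of the GFP negative arrays, and the change of 0.36 did not pass (limma adjusted p = 0.128, 95% interval -0.02 to 0.74). Without GFP positive 2 the change was 0.53 and passed (adjusted p = 0.0246). Without GFP positive 3 it was 0.23 (adjusted p = 0.324), and with median centring 0.24 (adjusted p = 0.262). A dimmer probe set, 1416981_at, rose by 0.63 ± 0.10 (adjusted p = 0.00294) with no overlap, from 5.97, 6.15 and 6.11 to 6.58, 6.69 and 6.84. Also, 1416982_at had a change of 0.43 that did not pass (adjusted p = 0.0717) and passed without GFP positive 2 (0.58, adjusted p = 0.0268) and with a variance prior that follows intensity (adjusted p = 0.0430). The fourth, 1456529_at, was under the dim filter at 1.30 and 1.09. Taken as the mean of its probe sets past the filter, Foxo1 rose by 0.47 (adjusted p = 0.0129 over genes). Foxo3 minus Foxo1 went from -0.99 ± 0.19 to -0.46 ± 0.21 (SD, n = 3), also without overlap and with an exact permutation p of 0.1.

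The 3 genes with the largest rises on their brightest probe sets have an entry each in RefSeq's table of start sites, and the 250 bases before the start are printed here because these genes rose in the same samples. Capitals mark letters that match 1 of 7 motifs searched on both strands: CAGCTG and CACCTG (E-boxes), GTAAACA (FOXO), CTTTGA (TCF/LEF), CCGGAAG (ETS), TGTGGT (RUNX) and the MEF2 motif. Where the table lists several starts, as it does 3 for Tcf12, the most upstream one was taken, and the arrays do not tell which start was used.
Bcl11b promoter, GRCm38.p6 chr12:108003415-108003664, minus strand: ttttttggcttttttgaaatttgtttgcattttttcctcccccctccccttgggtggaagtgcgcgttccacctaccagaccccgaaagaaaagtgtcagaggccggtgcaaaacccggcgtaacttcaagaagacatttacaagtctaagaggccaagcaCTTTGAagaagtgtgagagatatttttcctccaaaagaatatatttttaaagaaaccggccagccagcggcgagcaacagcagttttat
Tcf12 promoter, GRCm38.p6 chr9:72111820-72112069, minus strand: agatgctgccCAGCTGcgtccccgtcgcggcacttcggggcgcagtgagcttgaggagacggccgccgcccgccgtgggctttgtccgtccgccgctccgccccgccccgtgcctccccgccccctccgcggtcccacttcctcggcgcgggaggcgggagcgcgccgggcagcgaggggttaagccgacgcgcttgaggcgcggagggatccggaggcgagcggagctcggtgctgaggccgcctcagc
Foxo3 promoter, GRCm38.p6 chr10:42276696-42276945, minus strand: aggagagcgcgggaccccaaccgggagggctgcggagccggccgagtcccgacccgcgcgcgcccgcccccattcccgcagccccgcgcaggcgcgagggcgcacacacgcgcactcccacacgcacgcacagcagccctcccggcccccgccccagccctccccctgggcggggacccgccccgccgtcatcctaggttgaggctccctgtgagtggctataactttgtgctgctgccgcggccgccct
The Bcl11b window holds CTTTGA once, the Tcf12 window holds CAGCTG once, and the Foxo3 window holds none of the 7. The windows differ in composition, with 44.8% G and C for Bcl11b, 76.8% for Tcf12 and 76.4% for Foxo3, against a median of 52.4% over all 32851 windows in the table. CTTTGA was found in 13.8% of all windows, CAGCTG in 13.0%, CACCTG in 17.2%, TGTGGT in 14.0%, CCGGAAG in 6.91%, GTAAACA in 3.17% and the MEF2 motif in 1.69%. Windows were listed for 9 of the 10 genes, Ets1 being the exception, and the MEF2 motif was in 0 of the 9. MEF2 factors are known partners of class IIa deacetylases. A match is a description of letters, not a site of binding, and its absence says only that these letters are not in these windows.

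Foxp1 rose on 7 of its 8 probe sets. The brightest, 1435222_at, read 7.76, 7.41 and 7.57 on GFP negative and 7.89, 8.06 and 8.17 on GFP positive arrays. The groups came close, at 7.76 and 7.89, without overlapping, and the rise was 0.46 ± 0.12 (SE, limma adjusted p = 0.0215). It no longer passed without GFP negative 2 or 3 or without GFP positive 2 or 3 (adjusted p 0.0635 to 0.0709), nor after median centring of the arrays (0.34, adjusted p = 0.0508). In the fit with 1 probe set a gene, Foxp1 passed in every alternative run (adjusted p 0.00176 to 0.0480). Probe set 1421141_a_at read 7.01, 7.02 and 7.02 against 7.42, 7.57 and 7.58, a rise of 0.51 ± 0.08 (adjusted p = 0.00325). Probe sets 1421140_a_at, 1421142_s_at and 1435221_at rose by 0.74, 0.49 and 0.58. Probe set 1455242_at rose by 0.33. That call was not made when GFP negative 2, GFP negative 3, GFP positive 2 or GFP positive 3 was left out (adjusted p 0.0640 to 0.0875), nor with quantile normalization (0.26, adjusted p = 0.0586) or median centring (0.22, adjusted p = 0.0891).

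A dim Foxp1 probe set moved further than the rest. Probe set 1438802_at read 1.98, 2.08 and 2.43 on GFP negative and 3.58, 4.52 and 4.76 on GFP positive arrays, a rise of 2.12 ± 0.29 (SE, limma adjusted p = 0.00148) without overlap. Its rise exceeded that of the brightest probe set by 1.66 ± 0.27 (adjusted p = 0.0104 in the fit of differences). With 32 added on the linear scale the excess was 0.12 and did not pass (adjusted p = 0.385), and without GFP negative 1 and GFP positive 3 together it was 1.31 (adjusted p = 0.0734). The control level lies low, so no fold is given. The eighth probe set, 1443258_at, stayed low at 2.12 and 2.43 and did not pass.

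**Figure D2:**
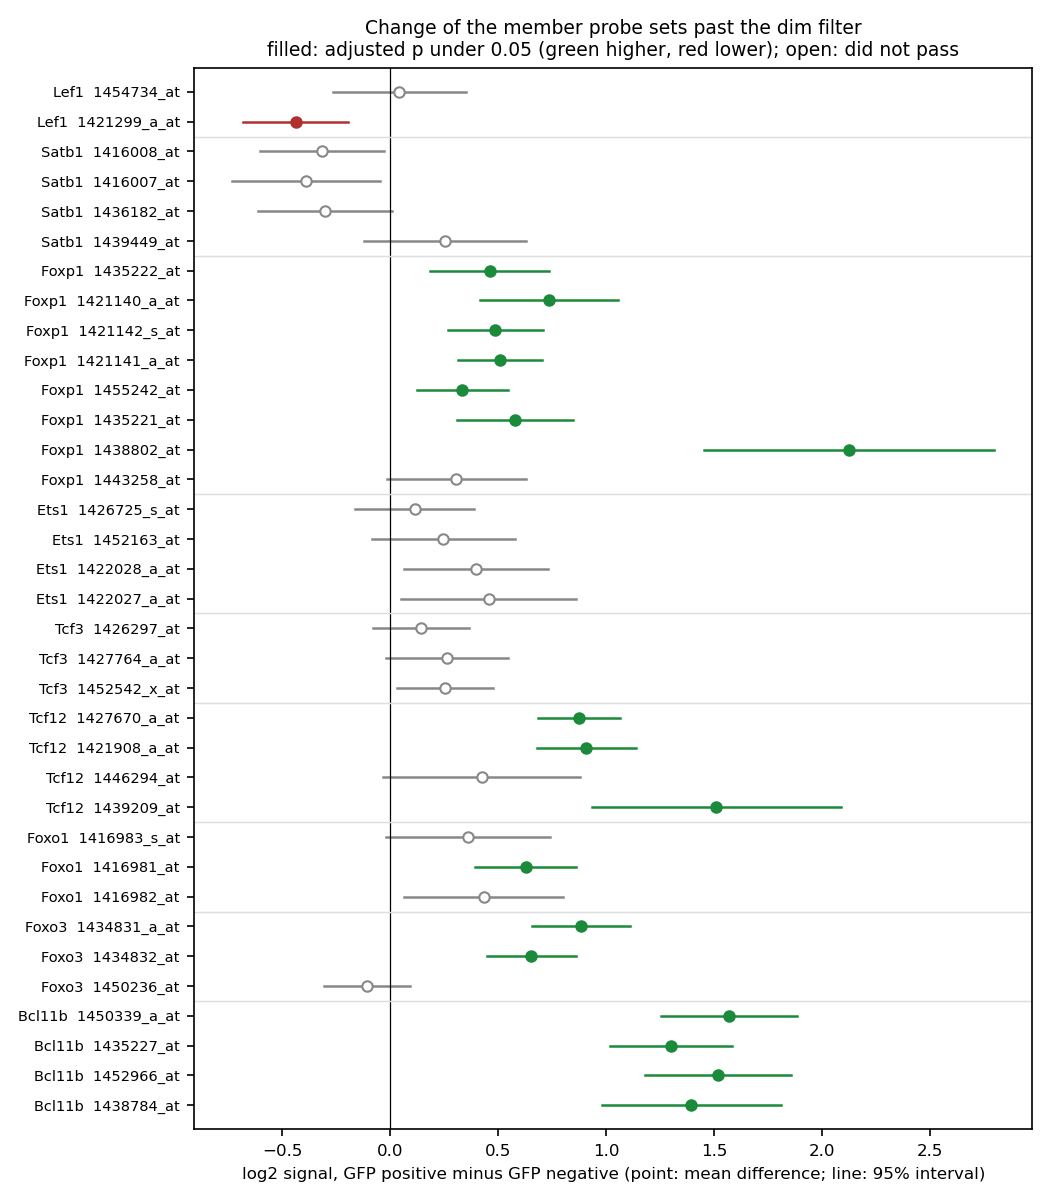
Change in log2 signal (x axis, GFP positive minus GFP negative, n = 3 arrays a group) of the 35 member probe sets past the dim filter, grouped by gene, with 95% intervals from limma. Filled points passed an adjusted p of 0.05, and those of Bcl11b lie between 1.30 and 1.57, while Ets1, Tcf3 and Satb1 have open points only.

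Lef1, the relative of Tcf7, did not pass on its bright probe set and fell on a dim one. Probe set 1454734_at read 7.46, 7.40 and 7.43 on GFP negative and 7.75, 7.23 and 7.43 on GFP positive arrays. The GFP positive arrays lay above, below and within the control range. The change was 0.04 (95% interval -0.26 to 0.35, limma adjusted p = 0.825), and its sign turned after quantile normalization (-0.03), median centring (-0.07) and without GFP positive 1 (-0.10). The second probe set, 1421299_a_at, fell by 0.44 ± 0.10 from a level of 2.19 (adjusted p = 0.0156), the only member probe set to do so. Its groups, at 2.28, 2.26 and 2.02 and at 1.72, 1.67 and 1.86, did not overlap. The call was lost without GFP negative 1 or 2 or GFP positive 2 (adjusted p 0.0554 to 0.0592), and with 32 added on the linear scale the change was -0.05 (adjusted p = 0.0667). The difference between the changes of both probe sets, -0.48, did not pass (adjusted p = 0.0909).

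Satb1 had lower values in GFP positive cells on each of its 3 brighter probe sets, none of which passed. The brightest, 1416008_at, read 8.73, 8.85 and 8.72 on GFP negative and 8.55, 8.19 and 8.61 on GFP positive arrays. GFP positive 2 was the lowest, and the highest GFP positive array lay just under the lowest GFP negative one. The changes were -0.32, -0.39 (1416007_at) and -0.30 (1436182_at), with limma adjusted p of 0.0860, 0.0796 and 0.118. After quantile normalization 1436182_at passed (-0.44, adjusted p = 0.0487). The first 2 passed with a variance prior that follows intensity (adjusted p = 0.0347 and 0.0426), and all 3 passed after median centring, with changes of -0.43, -0.50 and -0.42. As 1 probe set a gene, Satb1 passed without GFP positive 3 (-0.39, adjusted p = 0.0489). It did not pass without GFP positive 2, its lowest array (-0.19, adjusted p = 0.156), nor as the mean of its probe sets past the filter (-0.19, adjusted p = 0.221). Probe set 1439449_at, at 1.94 and 2.20, had a change of 0.25 that did not pass, and 1439315_at was under the dim filter at 0.73 and 0.58.

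Ets1, the ETS family member, did not pass on any of its 4 probe sets. Probe set 1426725_s_at read 9.53, 9.53 and 9.40 on GFP negative and 9.83, 9.43 and 9.54 on GFP positive arrays, and the groups overlapped. The change was 0.11 (95% interval -0.16 to 0.39, limma adjusted p = 0.486), and its sign turned after median centring (-0.0017) and without GFP positive 1 (-0.0016). Probe set 1452163_at had a change of 0.25 and passed without GFP positive 2 (0.41, adjusted p = 0.0286). The dimmer 1422028_a_at and 1422027_a_at had non-overlapping groups, with changes of 0.40 and 0.46 and adjusted p of 0.0684 and 0.0811. The first of these passed without GFP positive 2 (adjusted p = 0.0339) and the second without GFP positive 1 (0.61, adjusted p = 0.0227).

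Over the 35 tested member probe sets, all GFP positive arrays lay above all GFP negative ones in 21, and below in 4. Over all probe sets tested this was so in 25.9% and 22.2%. The 4 lower ones were 3 of Satb1 and the dim one of Lef1. The share of tested genes with a larger rise than the member was 5.24% for Tcf12, 5.17% for Foxo3, 16.5% for Foxp1, 21.2% for Foxo1, 34.9% for Tcf3, 37.2% for Ets1, 43.1% for Lef1 and 82.7% for Satb1.

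**Figure D3:**
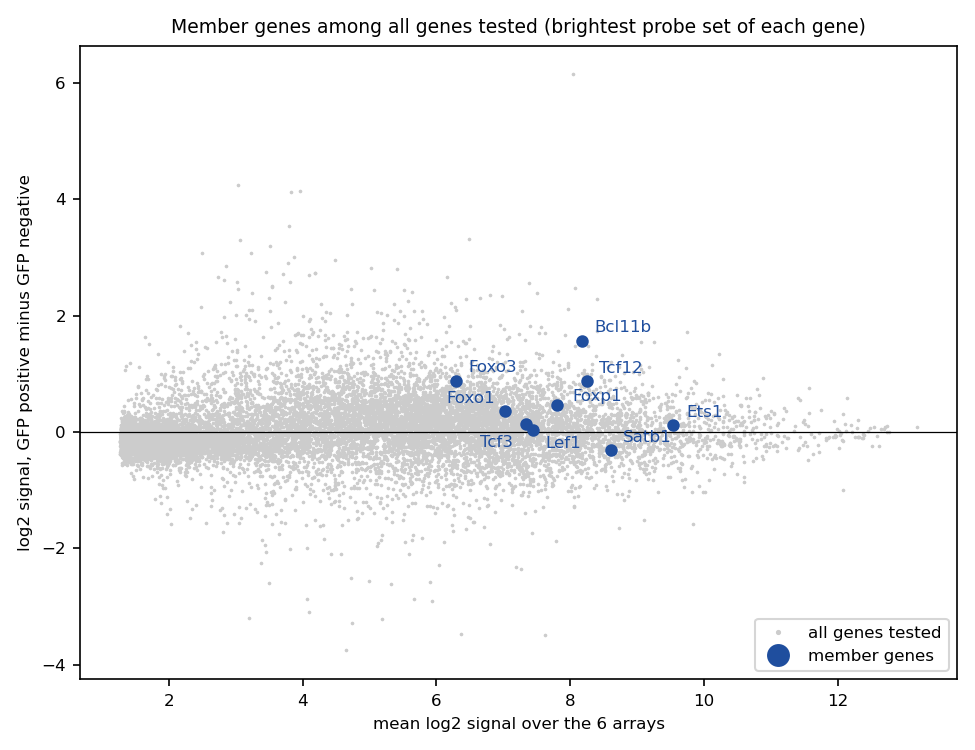
Change in log2 signal (y axis, GFP positive minus GFP negative) against mean log2 signal over the 6 arrays (x axis) for the brightest probe set of each of 13194 genes tested (grey) and of the 9 member genes (blue). Bcl11b, at 1.57, lies above most genes of similar signal, while Lef1, Tcf3 and Ets1 lie near 0.

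The genes that work with these factors were read from lists chosen with earlier results of these data known, so counts are descriptions. The shares to set beside them, over all genes tested, were 24.6% higher and 17.5% lower. Of 21 tested partners of TCF and LEF factors, 11 rose (52.4%) and 0 fell, with a median change of 0.32. Gsk3b, encoding a kinase that marks beta-catenin for destruction, rose by 0.88 ± 0.08 (SE), and Apc, encoding a scaffold of the same complex, by 0.62 ± 0.07. Ctnnb1, the beta-catenin gene, rose by 0.45 ± 0.08 and the TLE corepressor gene Tle4 by 0.56 ± 0.10. Activators and inhibitors of the pathway stand side by side among the genes that rose. Probe sets of a gene were uneven: 4 of 6 rose for Gsk3b (changes of -0.0027 to 0.88), 1 of 3 for Ctnnb1 and 1 of 2 for Tle4. With 32 added on the linear scale Apc rose by 0.36. The count that rose was 7 without GFP negative 1 and GFP positive 3 together, and 2 genes fell after median centring and 2 without GFP positive 1.

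Of 12 tested E protein partners and inhibitors, 7 rose (58.3%) and 2 fell (16.7%, near the 17.5% over all genes), with a median of 0.36. Id2, whose product binds E proteins and keeps them from DNA, rose from 7.53 ± 0.05 to 9.02 ± 0.13 (SD, n = 3), a change of 1.49. Id1, another such inhibitor, rose from 1.27 to 1.58 on GFP negative arrays, near background, to 3.88 to 4.18, and no size is given for that reason. Tcf4, a further E protein gene, rose by 1.14 from a low 2.45 (0.23 with 32 added on the linear scale), and Ldb1, encoding a LIM domain cofactor, by 0.79. Genes of E proteins and of their inhibitors rose in the same samples. The count of genes that fell was 0 without GFP negative 2 or GFP positive 3, 1 without GFP negative 1 or 3 or GFP positive 2, and 2 without GFP positive 1.

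FOXO regulators and relatives numbered 10 higher (55.6%) and 0 lower of 18 tested (median 0.40). Sgk1, encoding a kinase that phosphorylates FOXO factors, rose from 4.33 ± 0.31 to 6.08 ± 0.23 (SD, n = 3), a change of 1.75 (0.93 with 32 added on the linear scale). Stk4, encoding a kinase that acts on FOXO proteins in stress, rose by 0.65, and the acetyltransferase genes Crebbp and Ep300 by 0.70 and 0.58. After median centring 4 genes of this list fell, 2 did with quantile normalization, 2 with 32 added on the linear scale, 2 as the mean of their probe sets and 1 without GFP positive 1. The 14-3-3 genes Ywhaz and Ywhaq, whose proteins hold FOXO factors in the cytoplasm, were named after their values were seen. They had 2 of 7 and 3 of 8 tested probe sets that fell and none that rose. Over all probe sets tested 13.2% were lower and 19.3% higher. Neither gene fell on its brightest probe set in the fit of genes, and probe sets of 1 gene share a target.

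FOXO target genes gave 11 rises (52.4%) and 4 falls (19%, near the 17.5% over all genes) among 21 tested (median 0.40). Pik3ip1, encoding an inhibitor of PI3K, rose from 4.30 ± 0.25 to 6.74 ± 0.15 (SD, n = 3), Ccng2, the atypical cyclin G2 gene, by 2.08 and Txnip, encoding the thioredoxin-interacting protein, by 1.33. Klf2, a factor of quiescence and homing, fell by 3.21, from 6.79 to 3.58. With 32 added on the linear scale Pik3ip1 rose by 1.42 and Klf2 fell by 1.70. Of 3 further targets named after their values were seen, the homing gene Ccr7 fell by 0.31 (limma adjusted p = 0.0225). The others did not pass, with changes of -0.06 for S1pr1, a homing receptor gene (95% interval -0.51 to 0.40), and -0.08 for Il7r, a cytokine receptor gene (-0.95 to 0.78). The number that fell was 1 without GFP positive 3, and 2 without GFP negative 1 or 2.

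Of 26 tested genes of naive and memory T cells, 11 rose (42.3%) and 5 fell (19.2%), with a median change of 0.13. Some of these genes stand in the FOXO list too, and the share that fell was near the 17.5% over all genes. Dusp10, encoding a MAP kinase phosphatase, rose by 2.04, though its second probe set changed by 0.19. Igfbp4 and Lgals3, for a growth factor binding protein and galectin-3, fell by 3.28 and 3.46, Igfbp4 on 5 of 6 probe sets. With 32 added on the linear scale Dusp10 rose by 1.08 and Igfbp4 fell by 1.5. The number that fell was 3 without GFP negative 3. Among 19 other T lineage factors 10 rose (52.6%) and 1 fell (5.26%), with a median of 0.27. Gata3 rose from 4.46 ± 0.10 to 6.71 ± 0.21 (SD, n = 3), Tox by 1.04, Ikzf1 (Ikaros) by 0.70 and Nfatc2 by 0.73 on its brightest probe set, while another Nfatc2 probe set fell by 0.70. The second Ikzf1 probe set had a change of 0.06 and did not pass. Under the same added offset Gata3 rose by 1.34 and Tox by 0.38. The number of these 19 that fell was 0 without GFP negative 2 or 3 or GFP positive 1.

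Relatives of single members were read as well. Of 16 tested ETS family genes 7 rose (43.8%) and 1 fell (6.25%), with a median of 0.12. Only 3 rose after quantile normalization and 2 after median centring. Elk3 rose by 1.09 (0.65 with 32 added on the linear scale) and Fli1 fell by 0.48, a call lost without GFP negative 2 (-0.43, limma adjusted p = 0.051). Counts of ETS genes that rose were 3 or 4 when any 1 array other than GFP positive 1 was left out, and those that fell numbered 0 without GFP negative 2, 3 without GFP positive 1 and 2 without GFP positive 3. Of 16 relatives and partners of SATB, FOXP and BCL11 factors 5 rose (31.2%) and 1 fell (6.25%), with a median of 0.15. Over all genes tested 24.6% rose. Cux1, encoding a homeodomain repressor, rose by 1.06 (0.59 with the offset, and 4 of 5 tested probe sets rose). Chd3 and Chd4, which encode remodellers of the NuRD complex, rose by 0.49 each, the latter on 1 of 3 probe sets. Of these 16, 2 fell without GFP positive 1, 2 with quantile normalization and 4 with median centring.

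Of 14 transcription factor genes of effector T cells, 6 fell (42.9%) and 1 rose (7.14%), with a median of -0.51. Eomes, the T-box factor gene, fell from 7.18 ± 0.58 to 4.90 ± 0.22 (SD, n = 3), Batf, an AP-1 factor gene, by 1.55 and Myc by 1.12. Id2, which also stands in the E protein list, was the gene that rose. Of 13 genes of T cell identity, 6 rose (46.2%) and 4 fell (30.8%), with a median of 0.22. Cd8a and Cd8b1 gained 1.24 and 1.15, while the adhesion gene Cd2 fell by 1.03 and the kinase gene Zap70 by 0.50.

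**Figure D4:**
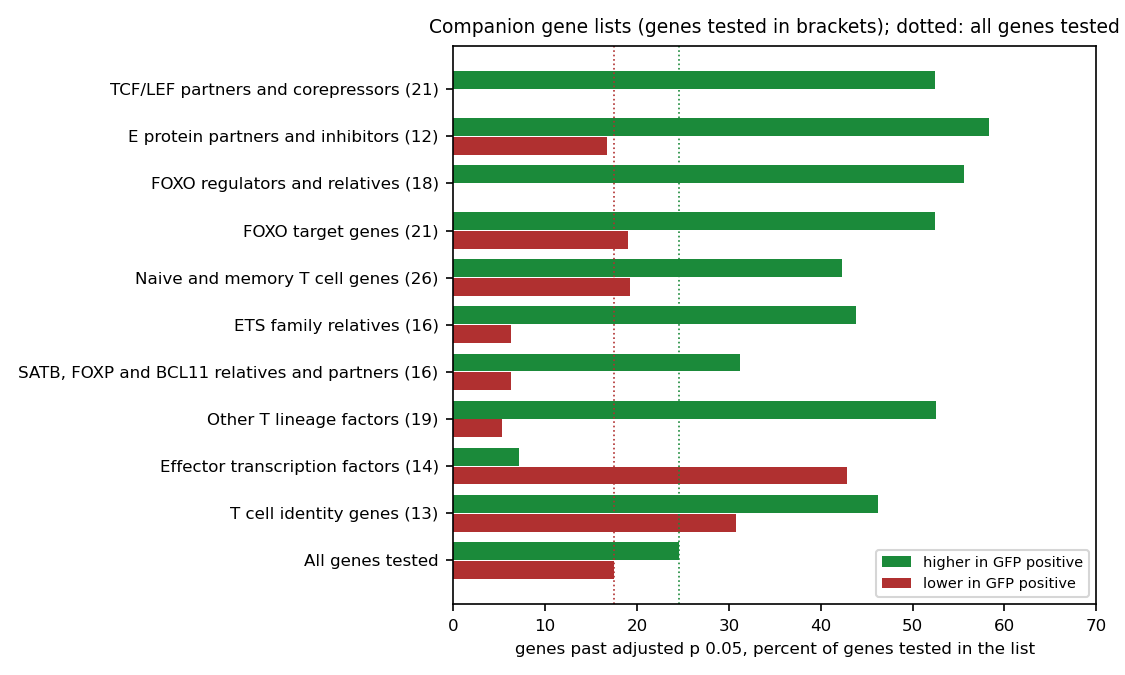
Percent of tested genes of each companion list (x axis) that were higher (green) or lower (red) in GFP positive cells at a limma adjusted p under 0.05, with the number of genes tested in brackets. The dotted lines mark the shares over all genes tested, 24.6% higher and 17.5% lower, and the effector list has the highest share of lower genes at 42.9%.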

How the data were processed

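Total RNA of the sorted cells was labelled with biotin and hybridised to the GeneChip mouse genome 430 2.0 array, per the labels' protocols. The deposited values are log2 signals per probe set, a unit read from their range. Affymetrix Expression Console was used, per the submitters' processing notes. Its summary and normalization settings: not given in the sources used here. Values were used as deposited.

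Of 45101 probe sets, 64 controls were set aside, 34958 carry 1 gene symbol, 932 several and 9160 are not listed in the annotation. The array's annotation carries no build. Probe sets under the 40th percentile of mean signal (1.27) were left out, 3 of them members, which leaves 27022. GFP positive was compared with GFP negative by limma 3.58.1 in R 4.3.3 (group only, two-sided), with Benjamini-Hochberg adjustment over all probe sets tested and a threshold of 0.05. The same was done for 13194 genes, each by its brightest probe set, and for 9824 differences between a probe set and the brightest of its gene. The companion gene counts come from the fit of genes, and the member probe set values from that of probe sets. Alternatives changed the filter, the normalization, the background (32 added on the linear scale), the variance prior, the replicate block, the arrays used and the probe set that stands for a gene.

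The members and lists were chosen with earlier results of these data known. Named were every member probe set, Hdac7, up to 4 genes a list by unadjusted p, the 5 genes most like the member that changed most, and, per other cell type, its brightest markers. The paralog test was added after the values were seen. To check pairing, deviations from the group mean were correlated between samples of both groups. Same-numbered samples gave 0.47, 0.35 and 0.25 across genes and 0.30, 0.24 and 0.08 across probe sets. Samples of different numbers gave -0.33 to 0.04 across genes and -0.25 to 0.07 across probe sets, lower than any same-numbered value. All same-numbered gene-level values are over 0.1 and 1 same-numbered probe-set value is not, and the labels do not state pairing. Results are those without the block, which changed no member call and moved no companion list's count by over 1.5 times. The procedure was run on simulated data with independent noise and few changed probe sets. That setting lacks the many changes, array shifts and correlated samples seen here. Promoter windows come from RefSeq (GRCm38.p6).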

Additional observations from a re-analysis of the deposited data

How the results depend on the processing

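The 4 member genes that rose (Bcl11b, Tcf12, Foxo3 and Foxp1) did so in all alternatives run on genes. For Foxp1 the limma adjusted p reached 0.0480 there, and in the fit of probe sets the same probe set lost its call in several runs. The fit with the replicate block, a paired form of the test, called 17 member probe sets higher and 1 lower, as without it, and changed no member call. With it 8 effector genes were lower against 6, 5 ETS genes higher against 7 and 6 E protein list genes higher against 7. Member probe sets that rose numbered 13 to 19 over the alternatives, with 13 when GFP negative 1 and GFP positive 3 were left out together. Those that fell, 1 as reported, numbered 0 with the 60th percentile filter, with 32 added on the linear scale and without those 2 arrays, 2 after quantile normalization, 3 with the trended robust prior and 4 after median centring, and 0 to 1 when 1 array was left out. Member genes that fell numbered 1 after median centring and 1 with the trended robust prior (Satb1 in both), and 0 to 1 without 1 array. Called differences between member probe sets, 2 as reported, numbered 9 with 32 added, 1 with the 60th percentile filter, 1 without those 2 arrays, and 2 to 5 without 1 array. Of these, 2 differences for Tcf12 turned with 32 added, 1421908_a_at from 0.03 to -0.21 and 1439209_at from 0.63 to -0.41. That setting shrinks changes of dim probe sets by construction.

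Median centring moved the median change of all probe sets from -0.02 to -0.14. Of all calls, 59.4% were higher with the values as deposited, 49.9% with quantile normalization and 39.3% with median centring, where 6263 probe sets were lower against 3568 and 37 companion genes fell against 22. Without GFP negative 1 and GFP positive 3, which leaves 2 arrays a group, 2765 probe sets were higher against 5218, 1609 lower, and 14 companion genes fell. Probe sets near background have changes whose size cannot be read.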
